A study of Mus musculus with 12 samples.

Results

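The genes described here are 7 genes that erythroid progenitors use for CO2 hydration, water transport and the first antigens of the red cell surface, namely Car1, Car2, Aqp1, Kel, Ermap, Icam4 and Cldn13. They were taken by gene symbol from a table of RNA-Seq counts, each symbol matched 1 gene, and they make up 7 of the 41128 genes in that table. All 7 passed the filter on low counts in each comparison. The counts come from PreMegEs, the bone marrow progenitors that give rise to megakaryocytes and erythroid cells, and the study asked how the activity of the distal (P1) and proximal (P2) promoters of Runx1 relates to the fate of these cells.

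The table holds 4 groups of 3 libraries, each made from the pooled marrow of 3 C57BL/6 mice aged 12 to 16 weeks. P2+ and P2- PreMegEs came from Runx1 P1-GFP::P2-hCD4/+ mice, in which 1 allele of Runx1 carries the reporters and the other is intact, and were separated among P1+ cells by human CD4 on the surface, which reports P2 activity. WT PreMegEs came from wild type mice and were not divided by promoter activity. RUNX1C KO PreMegEs, labelled as knockouts of the protein isoform made from P1, were also not divided. The reporter genotype and the sort by P2 activity cannot be told apart in a comparison with WT. Nor can they be told apart from the knockout where KO PreMegEs are set against P2- or P2+ PreMegEs. The sources used here do not state whether the KO libraries were made together with the others.

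Carbonic anhydrases interconvert CO2 and bicarbonate, and the cytosolic enzymes CAR1 and CAR2 do so in red cells, which carry CO2 from the tissues as bicarbonate. AQP1 is the water channel of the red cell membrane. In humans AQP1, KEL, ERMAP and ICAM4 carry the Colton, Kell, Scianna and Landsteiner-Wiener blood group antigens, and Car1 and Car2 have long served as markers of the erythroid lineage in mice.

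In GRCm38, as annotated in GENCODE vM21, Car1 (ENSMUSG00000027556, chr3:14766216-14808368, minus strand) and Car2 (ENSMUSG00000027562, chr3:14886273-14900770, plus strand) lay in the carbonic anhydrase cluster of chromosome 3. Kel (ENSMUSG00000029866, chr6:41686330-41704339, minus strand) and Aqp1 (ENSMUSG00000004655, chr6:55336432-55348555, plus strand) lay far apart on chromosome 6. Ermap (ENSMUSG00000028644) was at chr4:119175457-119190011 on the minus strand, Icam4 (ENSMUSG00000001014) at chr9:21029373-21030595 on the plus strand and Cldn13 (ENSMUSG00000008843) at chr5:134914249-134915526 on the minus strand. An antisense gene, Gm47079, overlaps the whole of Icam4, and whether the authors' counting used the strand is not given in the sources used here, so the counts of Icam4 are less certain than those of the others. A processed pseudogene on the same strand, Gm16399, lies within Car1.

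RefSeq promoters of GRCm38.p6, from 250 bases before to 50 after the start of transcription, were at hand for 4 of the 7 genes, Ermap, Kel, Aqp1 and Icam4. They are shown because all 4 genes fell between P2- and P2+ PreMegEs, with capitals marking matches on either strand to a GATA site (AGATAA, the variant TGATAA, the variant AGATAG, or the variant TGATAG) or to the CACCC box bound by KLF1 (CCNCNCCC). The windows were chr4:119189946-119190245 for Ermap and chr6:41704276-41704575 for Kel, both on the minus strand, and chr6:55336049-55336348 for Aqp1 and chr9:21029182-21029481 for Icam4, both on the plus strand.
Ermap: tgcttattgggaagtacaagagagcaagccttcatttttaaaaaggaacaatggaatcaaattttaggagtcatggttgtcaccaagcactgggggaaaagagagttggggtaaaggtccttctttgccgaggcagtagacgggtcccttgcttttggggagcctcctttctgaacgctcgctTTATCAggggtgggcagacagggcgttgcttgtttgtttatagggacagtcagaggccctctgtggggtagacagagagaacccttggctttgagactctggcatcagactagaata
Kel: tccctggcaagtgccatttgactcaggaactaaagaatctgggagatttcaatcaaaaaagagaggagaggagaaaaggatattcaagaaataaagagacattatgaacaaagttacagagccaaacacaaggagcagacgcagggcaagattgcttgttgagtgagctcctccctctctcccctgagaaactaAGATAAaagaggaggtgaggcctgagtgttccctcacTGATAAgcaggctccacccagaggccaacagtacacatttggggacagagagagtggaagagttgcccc
Aqp1: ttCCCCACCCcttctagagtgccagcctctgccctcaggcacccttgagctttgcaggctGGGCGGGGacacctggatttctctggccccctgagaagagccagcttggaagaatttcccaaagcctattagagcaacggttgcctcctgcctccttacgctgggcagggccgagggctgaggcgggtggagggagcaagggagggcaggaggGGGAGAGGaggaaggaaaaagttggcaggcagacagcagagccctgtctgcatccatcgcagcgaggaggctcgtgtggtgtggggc
Icam4: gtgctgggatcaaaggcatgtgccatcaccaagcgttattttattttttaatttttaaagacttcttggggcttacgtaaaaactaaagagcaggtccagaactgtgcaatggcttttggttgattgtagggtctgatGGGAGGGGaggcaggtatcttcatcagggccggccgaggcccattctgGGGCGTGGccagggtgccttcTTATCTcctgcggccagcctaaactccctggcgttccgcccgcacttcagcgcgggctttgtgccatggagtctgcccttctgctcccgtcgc
Matches to a GATA site were found in Ermap (starting at position -67 from the start of transcription), Kel (-56 and -19) and Icam4 (-43), and matches to the CACCC box in Aqp1 (-248, -190 and -37) and Icam4 (-112 and -64). No pair of matches overlapped. A match to a RUNX site (TGTGGT or TGCGGT) was found only in Aqp1 among these 4 windows, 37 bases after the start, and none of the 4 held an E-box of the letters CAGCTG or CAGATG. Of all 32851 mouse promoters of the same length, 29.8% held a GATA match, 49.5% a CACCC match, 22.4% a RUNX match and 30.6% such an E-box.

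Libraries held 10726098 to 14445026 counts. Levels are given in CPM, the count scaled to library size with TMM factors, in which 3 counts are worth 0.208 to 0.280. The second libraries of P2+ and of P2- PreMegEs stood further from their group than the others, since pairs of libraries of a group that held 1 of them had chi-square values of 24.6 to 32.8 over their degrees of freedom, against 8.60 and 9.36 in those that did not. All 7 genes passed the test between P2+ and P2- PreMegEs also without both of these libraries. Kit and Slamf1, both selected for in the PreMegE gate, were well expressed over the 12 libraries, with means of 974 and 46.1 CPM. Of the genes of excluded antigens, Ly6a (Sca1, 1.86 CPM) and Fcgr3 (CD16, 1.13 CPM) were low, Fcgr2b (CD32) had 11.2 CPM and was higher in P2+ than in P2- PreMegEs (1.15, adjusted p = 5.11e-04 in edgeR), and Itga2b (CD41, 151 CPM) and Eng (Endoglin, 117 CPM) were above Slamf1. The Runx1 count sums transcripts from both promoters and therefore does not check the RUNX1C KO. In bulk RNA, fewer cells of a type and less RNA per cell cannot be told apart.

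Per kilobase of exon, Aqp1, Car2 and Car1 were the most abundant of the 7 in WT PreMegEs, with 578 RPKM ± 49.1 (SD, n = 3), 328 RPKM ± 25.5 and 277 RPKM ± 11.9. Ermap (81.0 RPKM) and Icam4 (51.3 RPKM) were intermediate, and Kel (10.8 RPKM) and Cldn13 (4.27 RPKM) were the lowest. P2- and KO PreMegEs had the same order, except that Cldn13 (21.8 RPKM in P2- and 18.0 RPKM in KO PreMegEs) was above Kel (14.1 and 12.9 RPKM). In P2+ PreMegEs Car2 (282 RPKM) was above Aqp1 (182 RPKM), and Icam4 (44.2 RPKM) was next, followed by Car1 (9.46 RPKM), Ermap (4.27 RPKM), Cldn13 (1.51 RPKM) and Kel (1.15 RPKM). These orders are of group means and were not tested between genes.

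**Figure D1:**
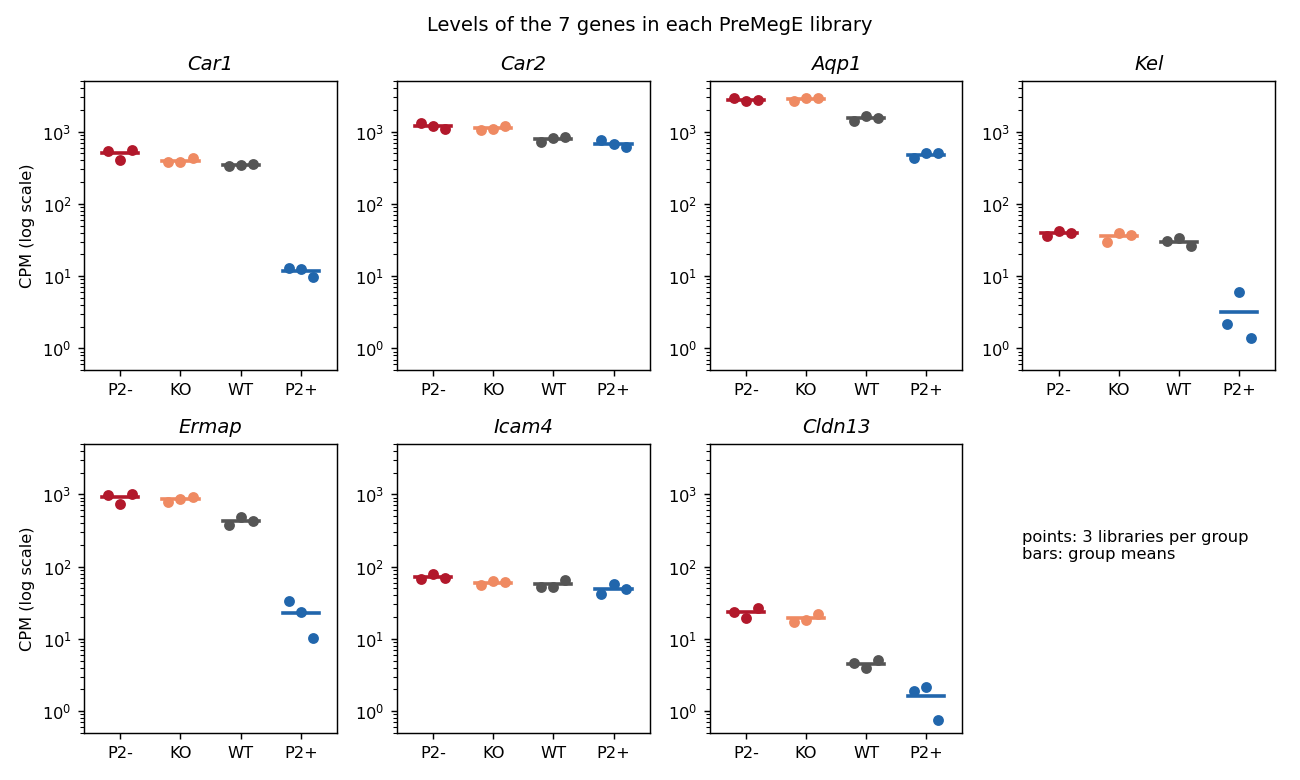
Level of each of the 7 genes in CPM on a log axis, by library. Points are the 3 libraries of P2-, KO, WT and P2+ PreMegEs and bars are group means. For Car1, Aqp1, Kel, Ermap and Cldn13 the P2+ libraries lie below those of the other groups, whereas for Car2 and Icam4 the P2+ and WT libraries overlap.

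All 7 genes were lower in P2+ than in P2- PreMegEs, and the groups did not overlap for any of them, as was the case for 25.1% of all genes tested in this direction. They fell into a set of 5 with large differences (Car1, Ermap, Cldn13, Kel and Aqp1) and a set of 2 with small ones (Car2 and Icam4). All 7 were called at an adjusted p under 0.05 in edgeR's quasi-likelihood test, where 17.0% of the 12836 genes tested were called lower and 20.1% higher. Their median log2 fold change was -3.58, beside -0.02 over all genes tested.

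Car1 had 539.7 CPM, 409 CPM and 557 CPM in the P2- libraries 1, 2 and 3 and 13 CPM, 12.7 CPM and 9.70 CPM in the P2+ libraries. The lowest P2- library, the second, was still far above every P2+ library. The log2 fold change was -5.40 (SE 0.17, adjusted p = 1.31e-06), or 42.1-fold lower in P2+ PreMegEs. The spread of the P2+ libraries was narrow (11.8 CPM ± 1.83, SD, n = 3). The difference was close to that of Ermap, and the order of these 2 genes turned without P2+ library 1 (-5.46 for Car1 and -5.71 for Ermap).

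Car2, which encodes the other abundant erythroid carbonic anhydrase, had 1295 CPM, 1201 CPM and 1084 CPM in P2- libraries and 759 CPM, 684 CPM and 603 CPM in P2+ libraries. All P2+ libraries were lower, but Car2 was still among the abundant transcripts there, unlike Car1. The log2 fold change was -0.80 (SE 0.10, adjusted p = 3.84e-04), a 1.74-fold difference.

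Aqp1 had 2918 CPM, 2686 CPM and 2698 CPM in the P2- libraries and 427 CPM, 508 CPM and 497 CPM in the P2+ libraries. The P2- libraries were close to each other, as were the P2+ libraries. The difference of -2.52 in log2 (SE 0.08, adjusted p = 1.31e-06), or 5.75-fold, was measured with the smallest standard error of the 7.

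Ermap, which encodes a red cell adhesion protein of the butyrophilin-like family, had 990.4 CPM, 730.0 CPM and 995 CPM in P2- libraries. It had 33.8 CPM, 23.8 CPM and 10.2 CPM in P2+ libraries, the third being the lowest. The log2 fold change was -5.31 (SE 0.40, adjusted p = 2.05e-05), or 39.7-fold. Kel, which encodes the Kell metalloendopeptidase, had 36.2 CPM, 42.1 CPM and 39.0 CPM in P2- libraries and 2.18 CPM, 6.01 CPM and 1.37 CPM in P2+ libraries. The P2+ values came from 26, 87 and 18 counts, and the second library was the highest. The log2 fold change was -3.58 (SE 0.42, adjusted p = 2.47e-04) and -4.44 without that library.

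Icam4, a ligand of integrins on erythroblasts and macrophages, changed least, with 66.7 CPM, 78.1 CPM and 69.3 CPM in P2- libraries and 42.1 CPM, 57.0 CPM and 48.2 CPM in P2+ libraries. Its groups did not overlap, and the log2 fold change was -0.53 (SE 0.12, adjusted p = 0.0102). Cldn13, of the claudin family of tight junction proteins, had 23.7 CPM, 19.4 CPM and 26.5 CPM in P2- libraries and 1.93 CPM, 2.14 CPM and 0.763 CPM in P2+ libraries. The P2+ values rested on 23, 31 and 10 counts. Its log2 fold change was -3.83 (SE 0.32, adjusted p = 3.55e-05), or 14.2-fold.

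P2+ and P2- libraries of the same number deviated together across genes and can be compared as pairs. Within the 3 pairs the difference of Car2 was almost constant, at -0.77, -0.81 and -0.85 in log2 CPM. That of Aqp1 was -2.77, -2.40 and -2.44. For the scarcer transcripts in P2+ PreMegEs the third pair showed the largest difference, with -6.58 for Ermap against -4.87 and -4.93 in the other pairs, -4.67 for Kel against -3.96 and -2.78, and -4.85 for Cldn13 against -3.52 and -3.09.

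**Figure D2:**
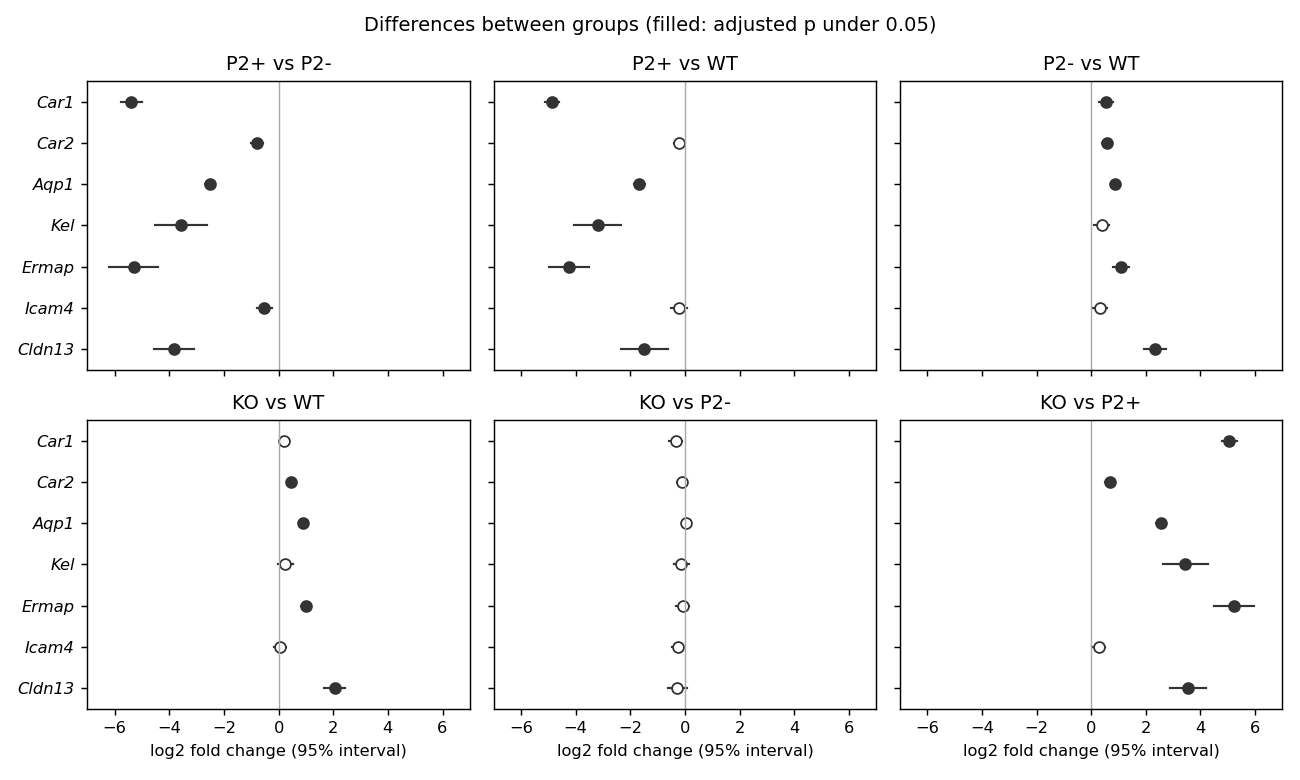
Log2 fold change (horizontal axis) of each gene in the 6 comparisons, first group over second group. Circles are estimates, filled where the adjusted p of edgeR's quasi-likelihood test was under 0.05, and lines are 95% intervals. The estimates for KO and P2- PreMegEs lie between -0.34 and 0.02, whereas those for P2+ and P2- PreMegEs reach -5.40.

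Relative to WT, 5 of the 7 genes were higher in P2- PreMegEs (Cldn13, Ermap, Aqp1, Car2 and Car1), where 6.85% of the genes tested were called higher. In the same WT libraries Car1 had 332 CPM, 343 CPM and 361 CPM, Car2 had 723 CPM, 823 CPM and 835 CPM, and Aqp1 had 1389 CPM, 1647 CPM and 1522 CPM. Cldn13 was by far the most changed, with 4.58 CPM, 3.97 CPM and 5.10 CPM in WT libraries and a log2 fold change of 2.35 (SE 0.18, adjusted p = 3.65e-05 in edgeR). Ermap had 372 CPM, 491 CPM and 423 CPM in WT libraries and was 1.08 higher in log2 in P2- PreMegEs (SE 0.13, adjusted p = 4.78e-04).

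The differences of Aqp1 (0.87, SE 0.07), Car2 (0.59, SE 0.08) and Car1 (0.54, SE 0.11) between P2- and WT PreMegEs were smaller, with adjusted p of 4.06e-05, 0.00124 and 0.00853 in edgeR's test. Kel had 30.2 CPM, 34.2 CPM and 25.8 CPM in WT libraries, and Icam4 had 52.5 CPM, 52.2 CPM and 66.1 CPM. All P2- libraries were above all WT libraries for these genes too, and so for all 7, beside 16.9% of all genes tested. The log2 differences were 0.38 for Kel (adjusted p = 0.0628) and 0.33 for Icam4 (adjusted p = 0.0731), neither of which passed the threshold. In DESeq2 and without the filter on low counts both passed. The median log2 fold change of the 7 was 0.59, beside 0.01 over all genes tested.

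In P2+ PreMegEs 5 of the 7 genes were lower than in the same WT libraries, where 7.07% of genes were called lower, and the groups did not overlap for these 5, beside 17.4% of all genes in this direction. Car1 was 29.2-fold lower, with a log2 fold change of -4.87 (SE 0.12, adjusted p = 1.08e-08 in edgeR). Ermap (-4.24, SE 0.33), Kel (-3.20, SE 0.39) and Aqp1 (-1.67, SE 0.09) followed, with adjusted p of 2.42e-05, 4.41e-04 and 2.08e-06. Kel differed by -4.08 without the second P2+ library. Cldn13 was lower by 1.49 (SE 0.39, adjusted p = 0.0269), a call that was lost without P2+ library 3 (-1.16, adjusted p = 0.0519) and without any 1 of WT libraries 1, 2 and 3 (adjusted p = 0.0745, 0.0614 and 0.0862).

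Car2 and Icam4 overlapped between P2+ and WT PreMegEs. Their log2 fold changes were -0.22 (95% interval -0.42 to -0.01, adjusted p = 0.139 in edgeR) and -0.21 (95% interval -0.50 to 0.09, adjusted p = 0.331). The median of the 7 genes was -1.67, beside 0.00 over all genes tested.

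WT PreMegEs, which were not divided by P2 activity, lay between P2- and P2+ PreMegEs in their mean for all 7 genes, but at different points. A mean between these fractions is partly set by the design, because undivided PreMegEs hold cells of both. By the paper's flow cytometry most PreMegEs of reporter mice were P2-. On a scale of CPM from the P2- mean (0%) to the P2+ mean (100%), Kel was at 25.2% ± 11.6 (SD, n = 3) and Car1 at 32.0% ± 3.04. Ermap was at 54.0% ± 6.76 and Aqp1 at 54.5% ± 5.63. Car2 was at 78.1% ± 12.1, Cldn13 at 86.4% ± 2.62 and Icam4, poorly placed because its end points lie close together, at 65.0% ± 35.7. Hence Car1 and Kel in WT PreMegEs were nearer to the P2- level, Cldn13 and Car2 were nearer to the P2+ level, and the WT libraries of Car1 (28.7% to 34.7%) and Cldn13 (83.8% to 89.1%) did not overlap on this scale, whose end points were taken as fixed. The positions depend on the scale. In log2 CPM, WT lay nearer to the P2- mean for each gene than in CPM, at 9.74% for Car1, 9.92% for Kel, 19.6% for Ermap, 34.2% for Aqp1, 59.1% for Cldn13, 60.7% for Icam4 and 72.5% for Car2.

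**Figure D3:**
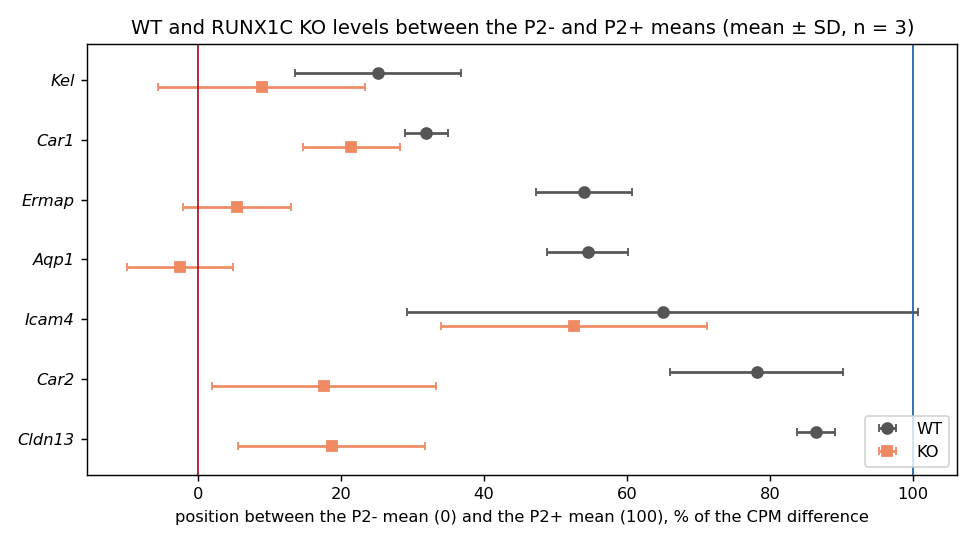
Position of WT (circles) and RUNX1C KO (squares) PreMegEs on the scale from the P2- mean (0) to the P2+ mean (100), in percent of the CPM difference, for each gene. Points are means and bars are SD over 3 libraries, with the end points taken as fixed. WT runs from 25.2% for Kel to 86.4% for Cldn13, and KO from -2.49% for Aqp1 to 52.6% for Icam4.

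In RUNX1C KO PreMegEs Cldn13, Ermap, Aqp1 and Car2 were higher than in WT PreMegEs, whereas Car1, Kel and Icam4 did not pass the test. With 4 of 7 genes called, the background was 6.18% of the genes tested called higher. Cldn13 had 17.1 CPM, 18.0 CPM and 22.4 CPM in KO libraries, 2.06 above WT in log2 (SE 0.18, adjusted p = 5.16e-07 in edgeR). Ermap had 789 CPM, 860.2 CPM and 921 CPM in KO libraries, and was higher by 0.99 (SE 0.09, adjusted p = 3.35e-07). No KO library of either gene overlapped with WT, but the share of all genes without overlap was not counted for KO against WT PreMegEs.

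Aqp1 had 2632 CPM, 2889 CPM and 2952 CPM in KO libraries and was 0.89 above WT (SE 0.07, adjusted p = 1.69e-07 in edgeR). Car2 had 1047 CPM, 1068 CPM and 1195 CPM and was 0.47 above WT (SE 0.07, adjusted p = 1.61e-04). Car1, with 377 CPM, 378 CPM and 435 CPM, was above WT in each KO library, but the difference of 0.19 was small (95% interval 0.05 to 0.33, adjusted p = 0.0643). It passed the threshold in DESeq2 (adjusted p = 0.0372), without the filter on low counts (0.0218) and without WT library 3 (0.0395).

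Kel had 30.1 CPM, 40.0 CPM and 37.6 CPM in KO libraries, overlapping with WT (0.25, 95% interval -0.02 to 0.52, adjusted p = 0.226 in edgeR). Icam4 had 54.9 CPM, 62.3 CPM and 61.8 CPM, also overlapping with WT (0.06, 95% interval -0.15 to 0.27, adjusted p = 0.764). The median of the 7 genes was 0.47 against WT, beside 0.00 over all genes tested. This comparison, like those of P2- and P2+ PreMegEs with WT, used the same 3 WT libraries, so that a deviation of these libraries enters all 3.

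Set directly against each other, KO and P2- PreMegEs differed little in the 7 genes. None was called in edgeR's quasi-likelihood test, 2 (Car1 and Icam4) had an unadjusted p under 0.05, edgeR's exact test called none, and DESeq2 called Car1. Among all genes tested 1.33% were called higher and 0.278% lower in KO PreMegEs, so that no call among 7 genes is near these shares. Without P2- library 2, 308 genes were called higher and 101 lower, against 168 and 35 with it. Of 11 tested megakaryocyte markers 9 were higher in KO than in P2- PreMegEs and 0 lower. The intervals bound the difference narrowly for Aqp1 (0.02, 95% interval -0.09 to 0.14), Car2 (-0.12, -0.29 to 0.05), Ermap (-0.08, -0.32 to 0.16) and Kel (-0.13, -0.40 to 0.14). They were wider for Cldn13 (-0.28, -0.63 to 0.06), and did not include 0 before adjustment for Icam4 (-0.26, -0.46 to -0.06) and Car1 (-0.34, -0.59 to -0.10). Car1 was lower in KO PreMegEs by 0.47 (adjusted p = 6.05e-04) when P2- library 2, its lowest P2- library, was left out. The median of the 7 was -0.13, beside -0.01 over all genes tested.

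Against P2+ PreMegEs, 6 of the 7 genes were higher in KO PreMegEs, where 16.7% of genes were called higher, with a median log2 fold change of 3.45 beside 0.00 over all genes tested. Ermap (5.23, SE 0.33) and Car1 (5.06, SE 0.12) differed most, followed by Cldn13 (3.55, SE 0.30), Kel (3.45, SE 0.38, and 4.32 without the second P2+ library), Aqp1 (2.55, SE 0.08) and Car2 (0.68, SE 0.08). Their adjusted p in edgeR ran from 4.36e-09 for Car1 to 1.23e-04 for Car2. Icam4 overlapped between the groups (0.27, 95% interval 0.02 to 0.52, adjusted p = 0.0903), and was called without the second P2+ library (0.39, adjusted p = 0.00910). On the scale from P2- to P2+, KO PreMegEs were at -2.49% for Aqp1, 5.47% for Ermap, 8.94% for Kel, 17.6% for Car2, 18.7% for Cldn13, 21.5% for Car1 and 52.6% for Icam4.

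In neighbouring groups of the order P2-, KO, WT and P2+, which 6 of the 7 genes shared by their means, the step that passed the test varied by gene. For Car1 and Kel only the step from WT to P2+ PreMegEs passed. For Car2 only that from KO to WT passed. For Ermap and Cldn13 both of these passed, and for Icam4 none did, its extremes alone being called. Aqp1 had KO (2824 CPM ± 169) slightly above P2- (2768 CPM ± 130.3), a step that did not pass, while the steps from P2- to WT and from WT to P2+ did.

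The ratio of Car1 to Car2 within a library, in counts per kilobase, does not depend on how libraries are scaled. It was between 0.809 and 0.891 in WT, between 0.661 and 0.997 in P2- and between 0.687 and 0.707 in KO PreMegEs, but between 0.0312 and 0.0361 in P2+ PreMegEs. Car2 thus exceeded Car1 per kilobase in all 12 libraries, and by far the most in those of P2+ PreMegEs. The ratios of P2+ PreMegEs did not overlap with those of P2-, WT or KO PreMegEs, nor those of KO with WT, and each of these 4 comparisons gave the smallest p that an exact two-sided permutation test of 3 against 3 can give, 0.1 (0.15 after Benjamini-Hochberg adjustment over 6 comparisons), which cannot reach 0.05. For P2- against WT the exact p was 0.8 and for KO against P2- it was 0.4, in permutation tests of the same kind.

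Of the 14 other carbonic anhydrases in the table, 6 were tested between P2+ and P2- PreMegEs. In P2+ PreMegEs 2 were called higher and 0 lower, counts not far from the 20.1% and 17.0% over all genes. The 2 called were Car3 and Car12, the latter named after its values were seen. Car12 had 0.173 CPM in P2- and 2.51 CPM in P2+ PreMegEs, and passed the filter on low counts only through P2+ libraries. Car3, which lies between Car1 and Car2, had 7.70 CPM ± 1.80 (SD, n = 3) in P2-, 7.70 CPM ± 1.73 in KO, 15.4 CPM ± 1.64 in WT and 16.3 CPM ± 0.603 in P2+ PreMegEs. It was 1.09 higher in log2 in P2+ than in P2- PreMegEs (SE 0.19, adjusted p = 0.00226 in edgeR), and lower than in WT by 0.99 in P2- and by 1.01 in KO PreMegEs (adjusted p = 0.00798 and 0.00117). The cytosolic Car13 (28.3 CPM over the 12 libraries) and the membrane-bound Car9 (9.86 CPM) were not called in any of the 6 comparisons.

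The other aquaporins that were measured followed Aqp1. Only Aqp9 and Aqp11 were tested besides Aqp1 among the 11 others, and both were called in the direction of Aqp1 in 5 of the 6 comparisons and in neither direction between KO and P2- PreMegEs. Over all genes 17.0% were called lower in P2+ than in P2- PreMegEs and 6.85% higher in P2- than in WT PreMegEs. Likewise 7.07% were called lower in P2+ than in WT, 6.18% higher in KO than in WT and 16.7% higher in KO than in P2+ PreMegEs. Aqp9, which conducts glycerol as well as water, had 369.9 CPM in P2-, 343 CPM in KO, 235 CPM in WT and 64.1 CPM in P2+ PreMegEs, and differed by -2.52 in log2 between P2+ and P2- PreMegEs (SE 0.09, adjusted p = 1.31e-06 in edgeR). Aqp11 was scarcer (36.3 CPM in P2- and 5.59 CPM in P2+ PreMegEs) and changed by -2.69 (SE 0.18, adjusted p = 1.05e-05).

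**Figure D4:**
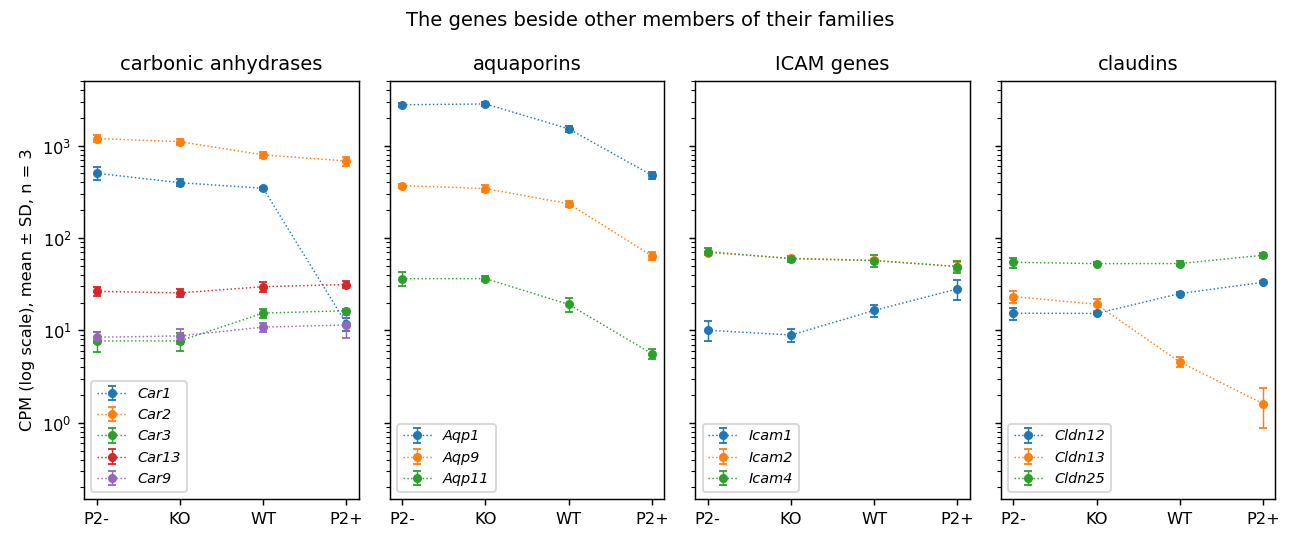
Group means in CPM on a log axis for carbonic anhydrases, aquaporins, ICAM genes and claudins with a mean of over 9 CPM, in P2-, KO, WT and P2+ PreMegEs. Bars are SD over 3 libraries and dotted lines join values of the same gene. Aqp1, Aqp9 and Aqp11 run in parallel, whereas Car3, Icam1 and Cldn12 run against Car1, Icam4 and Cldn13.

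Xk, which encodes the transporter-like partner that the Kell protein is bound to in the red cell membrane, was lower in P2+ than in P2- PreMegEs, by a log2 difference of -0.93 (SE 0.13, adjusted p = 6.51e-04 in edgeR) beside -3.58 for Kel. Of the metallopeptidases related to Kel, Ece1 was higher (0.70, adjusted p = 0.00239) and Ece2 lower (-0.43, adjusted p = 0.0488) in P2+ PreMegEs. Relative to WT, Xk was higher in P2- (0.61, adjusted p = 0.00365) and in KO PreMegEs (0.45, adjusted p = 7.11e-04), in both of which Kel did not pass the test.

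Of the 2 other claudins tested, Cldn12 was higher in P2+ than in P2- PreMegEs (1.12, SE 0.14, adjusted p = 2.94e-04 in edgeR) and Cldn25 was not called (0.27, adjusted p = 0.0912). In the butyrophilin family Btnl9 was higher in P2+ PreMegEs than in P2- (0.70, adjusted p = 0.00141), but highest in WT (102 CPM against 61.6 CPM in P2+, 38.2 CPM in P2- and 31.8 CPM in KO PreMegEs), a pattern not seen for Ermap. Among the ICAM genes and the integrin subunits that bind ICAM4, not counting Icam4, P2+ PreMegEs had 7 of 11 tested above and 3 below P2- PreMegEs (20.1% and 17.0% over all genes). The megakaryocytic subunits Itgb3 (3.59, SE 0.33) and Itga2b (2.48, SE 0.17) rose most among the 6 most abundant, with adjusted p of 6.46e-05 and 1.22e-05 in edgeR, and Itga4 (-0.87, adjusted p = 1.59e-05) fell. Icam2, with 69.5 CPM in P2- and 49.1 CPM in P2+ PreMegEs, matched Icam4 in level (71.4 and 49.1 CPM) and was called lower (-0.49, adjusted p = 0.00519), and is named after its values were seen.

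Of the other blood group carriers, without the 4 described here, 9 of 22 tested fell and 4 rose from P2- to P2+ PreMegEs, beside 17.0% and 20.1% of all genes, so that the number that rose was near the share over all genes, and their median log2 fold change of -0.19 was small beside those of Ermap and Kel. The most abundant of them included Cd47 (0.03, adjusted p = 0.834 in edgeR) and Cd44 (0.07, adjusted p = 0.490), neither of which was called, the urea transporter Slc14a1 (1.35, adjusted p = 2.87e-05) and the glycophorin gene Gypc (0.54, adjusted p = 0.00196), which were higher, and Bsg (-0.27, adjusted p = 0.0230) and Xk, which were lower. Of the scarcer carriers, Rhd (-4.61), Rhag (-3.10) and Smim1 (-1.31) fell and Sema7a (3.05) rose, and these were named after their values were seen. In KO against WT PreMegEs 10 of the 22 were higher and 2 lower, beside 6.18% and 8.76% of all genes.

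Of the genes for acid and bicarbonate transport, 3 of 11 tested rose and 4 fell from P2- to P2+ PreMegEs, beside 20.1% and 17.0% of all genes. Of those that rose, Slc4a8 (0.620 CPM in P2- and 1.55 CPM in P2+) passed the filter only through P2+ libraries. It is named after its values were seen. The monocarboxylate transporter Slc16a1 was lower (-0.84, SE 0.08, adjusted p = 6.57e-05 in edgeR). Slc4a1, which encodes the anion exchanger band 3 of the mature red cell and is named after its values were seen, was low, with 27.2 CPM ± 24.7 (SD, n = 3) in P2+ and 19.5 CPM ± 8.88 in P2- PreMegEs, and was not called (0.51, adjusted p = 0.563). The sodium-proton exchanger Slc9a8 was not called either (-0.04, adjusted p = 0.749 in edgeR).

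Of 11 erythroid regulators, 6 fell and 3 rose from P2- to P2+ PreMegEs, beside 17.0% and 20.1% of all genes. Among the 6 most abundant, Myb fell by 1.24 in log2 (adjusted p = 5.95e-06 in edgeR), Runx1 rose by 1.59 (adjusted p = 2.34e-06), Zfpm1 by 0.57 and Lmo2 by 0.34 (adjusted p = 0.00391 and 0.00485), and Tal1 and Nfe2 were not called (adjusted p = 0.273 and 0.773). Klf1, whose product binds CACCC boxes, was among those that fell. Runx1 is counted among the 3 that rose, but the cells were sorted by the activity of its P2 promoter. Its rise is therefore not independent of the sort.

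Among annotated neighbours within 100 kb, which were looked at to see whether the differences extended along the chromosome, Aqp1 and Kel each had 1 neighbour that was tested between P2+ and P2- PreMegEs, Mindy4 (0.30, adjusted p = 0.703 in edgeR) and Ephb6 (0.61, adjusted p = 0.0545), and neither was called. Around Icam4, 3 of 8 tested neighbours were higher and 3 lower, beside 20.1% and 17.0% of all genes. The adjacent Icam1 was higher in P2+ PreMegEs (1.50, SE 0.23, adjusted p = 0.00110), whereas Icam5, on the other side, was lower (-3.18, adjusted p = 0.00378), but at a mean of 0.911 CPM. Icam5 passed the filter only through P2- libraries. Of the 6 tested neighbours of Ermap, Svbp (-1.64, adjusted p = 5.25e-04) and Ybx1 (-0.29, adjusted p = 0.0313) were lower, the glucose transporter gene Slc2a1 was higher (1.64, adjusted p = 0.00232), and Zfp691, AU022252 and P3h1 were not called. Of the 2 tested neighbours of Cldn13, Abhd11 was lower as well (-0.83, adjusted p = 0.00213) and Mettl27 was not called (-0.10, adjusted p = 0.651). Gm16399, inside Car1, did not follow it (-0.37, adjusted p = 0.439, at a mean of 2.34 CPM).

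The genes with the most similar profiles were sought among 10724 genes with a mean of at least 5 CPM, by the root mean square (RMS) difference of log2 CPM over the 12 libraries after each gene was centred on its own mean. The nearest to Car1 were Atp1b2 (RMS 0.32), which encodes a subunit of the sodium pump, Prss50 (0.36) and Tspo2 (0.38). The nearest to Ermap were Pklr (0.20), encoding the pyruvate kinase of red cells and liver, Atp1b2 (0.34) and Slc26a1 (0.37). For comparison, the median gene had an RMS of 2.21 to Car1 and of 2.26 to Ermap, over the same libraries.

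Aqp1 was nearest to Reps2, Abcb4 and Klf1, all at an RMS of 0.14 against a median of 1.04. Klf1, an erythroid transcription factor, had 389.8 CPM in P2-, 372 CPM in KO, 229.6 CPM in WT and 58.9 CPM in P2+ PreMegEs, and differed by -2.71 in log2 between P2+ and P2- PreMegEs (SE 0.09, adjusted p = 1.31e-06 in edgeR), beside -2.52 for Aqp1. Kel was nearest to Trib2 (0.29), A730046J19Rik (0.29) and Zg16 (0.41), against a median of 1.63. Cldn13 was nearest to Camsap2 (0.28), Abcg4 (0.38) and Atp7b (0.42), against a median of 1.58, and Camsap2 shared its low WT level (7.60 CPM in WT, 35.1 CPM in P2-, 36.3 CPM in KO and 3.26 CPM in P2+ PreMegEs).

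Car2 was nearest to Slc16a1 (RMS 0.09), Gm10110 (0.11) and Scamp3 (0.11), against a median of 0.38. Icam4 was nearest to Ltv1 (0.07), Ece2 (0.08) and Nolc1 (0.09), against a median of 0.29. Among the 7 genes themselves Car1 and Ermap were at 0.40 with a Pearson r of 0.98. Car2 and Icam4 were at 0.24, but this measure is small for any genes that change little, and their r was 0.72. The 12 libraries fall into the same 4 groups for every gene, so they are not independent points for either measure.

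Markers of other cells were measured beside the 7 genes. The 10 matched markers of later erythroid cells summed to 353 to 415 CPM in P2-, 308 to 347 CPM in KO, 203 to 236 CPM in WT and 91.7 to 233 CPM in P2+ libraries, the last of these overlapping with WT. Tfrc alone had 258 CPM in P2- and 93.4 CPM in P2+ PreMegEs. Of 7 tested between these groups, 3 were lower, Tfrc and Rhd among them, and none was higher, beside 17.0% and 20.1% of all genes, while the median log2 fold change was 0.08, beside -0.02 over all genes. Slc4a1 (0.51), Hbb-bt (0.94) and Trim10 (0.78) were not called. Of the defining genes of maturing erythroblasts Alas2 had a mean of 1.86 CPM. Hba-a1 and Hba-a2 had 0.284 CPM and 0.226 CPM, but they are near-identical copies, as are Hbb-bs and Hbb-bt, and such counts are uncertain because the treatment of reads that align to both copies is not given in the sources used here. Hbb-bs (10.8 CPM) was not called between P2+ and P2- PreMegEs (adjusted p = 0.933 in edgeR). The 12 megakaryocyte markers had a summed level of 286 to 359 CPM in P2-, 632 to 650.4 CPM in KO, 780 to 878 CPM in WT and 1211 to 1756 CPM in P2+ libraries, and 10 of 11 tested were higher in P2+ than in P2- PreMegEs, beside 20.1% of all genes. The sort depleted cells with lineage antigens, Ter119 of erythroid cells among them, and left out CD41+ cells, as megakaryocytes are. The part of either in the levels of the 7 genes was not tested.

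The 9 markers of endothelium, which also expresses Aqp1, summed to 79.2 to 88.3 CPM in P2- and 128 to 168 CPM in P2+ libraries, and of 6 tested between these groups the P2+ libraries had 4 called higher and 1 called lower, beside 20.1% and 17.0% of all genes. Tek (24.3 CPM in P2- and 63.3 CPM in P2+) and Esam (5.64 and 41.8 CPM) were higher, Plvap (31.1 and 9.80 CPM, with 30.1 CPM in KO and 17.7 CPM in WT PreMegEs) was lower like Aqp1, and Cdh5 was at a mean of 0.119 CPM. Emcn (0.376 CPM in P2- and 2.855 CPM in P2+), also called higher, passed the filter only through P2+ libraries. The sort took Kit+ CD150+ cells without Endoglin, an antigen of endothelium, and the part of such cells in the level of Aqp1 was not tested. Summed markers of macrophages were between 7.41 and 21.7 CPM in all libraries, of neutrophil precursors between 28.1 and 249 CPM, and of mast cells and basophils between 30.0 and 157 CPM. Of these, 1 of 5, 3 of 7 and 4 of 4 tested markers were higher in P2+ than in P2- PreMegEs, and none was lower, beside 20.1% and 17.0% of all genes. Csf1r, the macrophage marker called, had 0.256 CPM in P2- and 3.31 CPM in P2+ PreMegEs. Fcer1a of mast cells had 0 and 1.91 CPM. Both passed the filter only through P2+ libraries. Against WT, 4 of 5 tested neutrophil markers were lower in KO and 3 of 7 in P2- PreMegEs, beside 8.76% and 9.60% of all genes. In KO PreMegEs 2 of 3 tested mast cell markers were above WT, beside 6.18%.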

How the data were processed

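PreMegEs were sorted from WT, reporter (P2+ and P2-) and RUNX1C KO mice (3 libraries a group), and groups were taken from the sample labels. Per the labels and the study's methods, the authors made strand-specific poly(A) libraries, aligned paired reads to GRCm38 with Bowtie2 and deposited raw counts per Ensembl gene made with featureCounts. Strand use and reads aligning to several places are not given in the sources used here. Totals were 10726098 to 14445026 counts per library. Limits from counts cover counting error only.

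A comparison of 2 groups kept genes that reached 1 CPM in 3 or more of its 6 libraries, and tested them with edgeR 4.0.16 (R 4.3.3), by TMM scaling and the quasi-likelihood F-test on 2 groups, with Benjamini-Hochberg adjustment over all genes kept. A gene was called at an adjusted p under 0.05, with no minimum fold. Some genes near the floor in 1 group passed the filter only through the group where they were higher, which favours a call in that direction. CPM and RPKM (union exonic length, GENCODE vM21) used TMM factors of all 12 libraries. The fit was tested on simulated data. P-values measure the spread between pools of mice, and those of the 2-group fits do not use the pairing of P2+ with P2- libraries.

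The 7 genes and all lists were chosen with earlier results of these data known. Other named genes are up to 6 of the highest mean CPM per list, the 3 nearest profiles per gene and neighbours within 100 kb. Exceptions are stated beside their values, and marker genes come from marker lists. Counts over lists include some genes whose own values are not reported here. Of the 29 listed blood group carriers 28 matched a symbol, as did 10 of 14 later erythroid markers.

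Replicate numbers pair P2+ with P2- libraries (correlations of deviations from group means 0.386, 0.572 and 0.405). In the other comparisons not every correlation was over 0.1. Alternatives were other scalings and filters, edgeR's exact test, DESeq2 1.42.0, a joint fit, the replicate block, a 2-fold minimum and leaving out libraries.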

Additional observations from a re-analysis of the deposited data

How the results depend on the processing

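Over all alternatives, 574 of the estimates for the 7 genes kept their direction and their side of the threshold, 14 gained a call, 4 lost one (all of Cldn13 between P2+ and WT PreMegEs) and 2 changed sign near 0. These were Icam4 between KO and WT without WT replicate 1 (-0.0014, and up to 0.18 when another library was left out) and Aqp1 between KO and P2- without KO replicate 3 (-0.0083, and up to 0.073 likewise). With a 2-fold minimum, the genes called fell from 5 to 2 for P2- and from 4 to 1 for KO against WT PreMegEs, from 7 to 5 between P2+ and P2- and from 6 to 5 between KO and P2+ PreMegEs. Between KO and P2- PreMegEs 1 gene, Car1, was called in place of 0 without the filter on low counts and in DESeq2, and between 0 and 1 when a library was left out. The log2 ratio of Car1 to Car2 between P2- and WT was between -0.21 and 0.09 when a library was left out, and 0.0867 without P2- replicate 2, from -0.06. With the replicate block, 7 genes were called between P2+ and P2- PreMegEs, as without it. Of all 12836 genes tested, the block called 3325 higher and 3189 lower, against 2576 and 2186 without it. The shares over all genes given above for this comparison are those without the block. Elsewhere the samples share only a number, and the block added Car1 between KO and WT (adjusted p = 0.0231 in edgeR) and Icam4 between KO and P2+ (0.0477). At a minimum of 5 CPM Cldn13 could not be tested between P2+ and WT PreMegEs. Library 2 of both groups was left out together only for P2+ against P2-. The cause of these changes was not tested, and 3 libraries a group limit what can be called.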
